A study of Mus musculus with 18 samples.

Results

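Fibroblast growth factors (FGFs) and their receptors were examined in sorted cardiac fibroblasts of the newborn mouse, in 10 named genes of the 55453 gene symbols counted. The ligands were Fgf1, Fgf2, Fgf7, Fgf9, Fgf10, Fgf16 and Fgf18 and the receptors were Fgfr1, Fgfr2 and Fgfr3. They were taken by name as family members, with earlier results of these data known. All 10 were among the 16170 genes that passed the filter on low counts, although Fgf9 and Fgf10 had no count in 7 and 12 of the 18 libraries.

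Each library was made from GFP+ cells that were sorted out of the lower ventricles, towards the apex, of C57BL/6J pups carrying Tcf21-MerCreMer/+ and Rosa-mTmG/+. Tcf21 is a transcription factor of resident cardiac fibroblasts, and 4-hydroxytamoxifen given at P1 (postnatal day 1) switched the reporter from tdTomato to GFP in cells with active Cre. All 6 groups carried both alleles and received this drug. GFP therefore followed the descendants of cells that expressed Tcf21 at that time, and a labelled cell need not express it later. The P2 baseline and P10 baseline groups came from un-manipulated pups of those ages. The P2 sham and P2 resected groups had surgery at P2, in the window when the heart regenerates, and were collected 3 days later at P5. The P10 sham and P10 resected groups had surgery at P10, after that window, and were collected at P13. Each group held 3 libraries, with 10462737 to 22980554 counted reads per library. Neither the sex of the pups nor the number per library is given in the sources used here, and nothing says that libraries of a group came from separate animals, so p-values measure the spread between these libraries, which may be technical.

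Most FGFs are secreted and act near the cell that makes them. Held by heparan sulphate, a ligand brings pairs of FGF receptors together, and the receptor kinases then signal through the adaptor Frs2 to the Ras and MAP kinase pathway and to other branches. This signal induces its own brakes, the Sprouty proteins and the MAP kinase phosphatases, and the Etv transcription factors. FGF9 and FGF16 are close relatives, FGF18 belongs to the FGF8 subfamily, FGF7 and FGF10 act mainly through the IIIb splice form of Fgfr2, and FGF1 and FGF2 lack a classical signal peptide. Counts were made per gene, so the IIIb and IIIc forms of the receptors could not be told apart.

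Fgf18 and Fgf16 were higher and Fgfr2 was lower in cells from P10 to P13 hearts than in cells from P2 to P5 hearts. Fgfr1, the receptor with most reads, was moderately higher. In the comparison of the 9 P10 libraries with the 9 P2 libraries, taking the 3 groups of each age window together, 4 of the 10 genes passed the test (edgeR quasi-likelihood, Benjamini-Hochberg adjusted p under 0.05), 3 higher and 1 lower. Over all genes tested in that comparison 13.5% passed, 7.11% higher and 6.39% lower. DESeq2 called the same 4 genes, where 18.5% of its genes passed. The median log2 fold change of the 10 genes was 0.53, beside -0.06 over all genes tested. All 4 passed the test when any 1 of the 18 libraries was left out. Resection against sham surgery gave no call for any of them at either age. The age windows differ in more than age. P10 to P13 hearts were digested for longer before sorting than P2 to P5 hearts. The drug was given at P1 in all groups, so the time from labelling to sorting was longer too. These differences cannot be told apart from age. In sorted bulk RNA, fewer cells that express a gene and less RNA per cell cannot be told apart either.

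**Figure D1:**
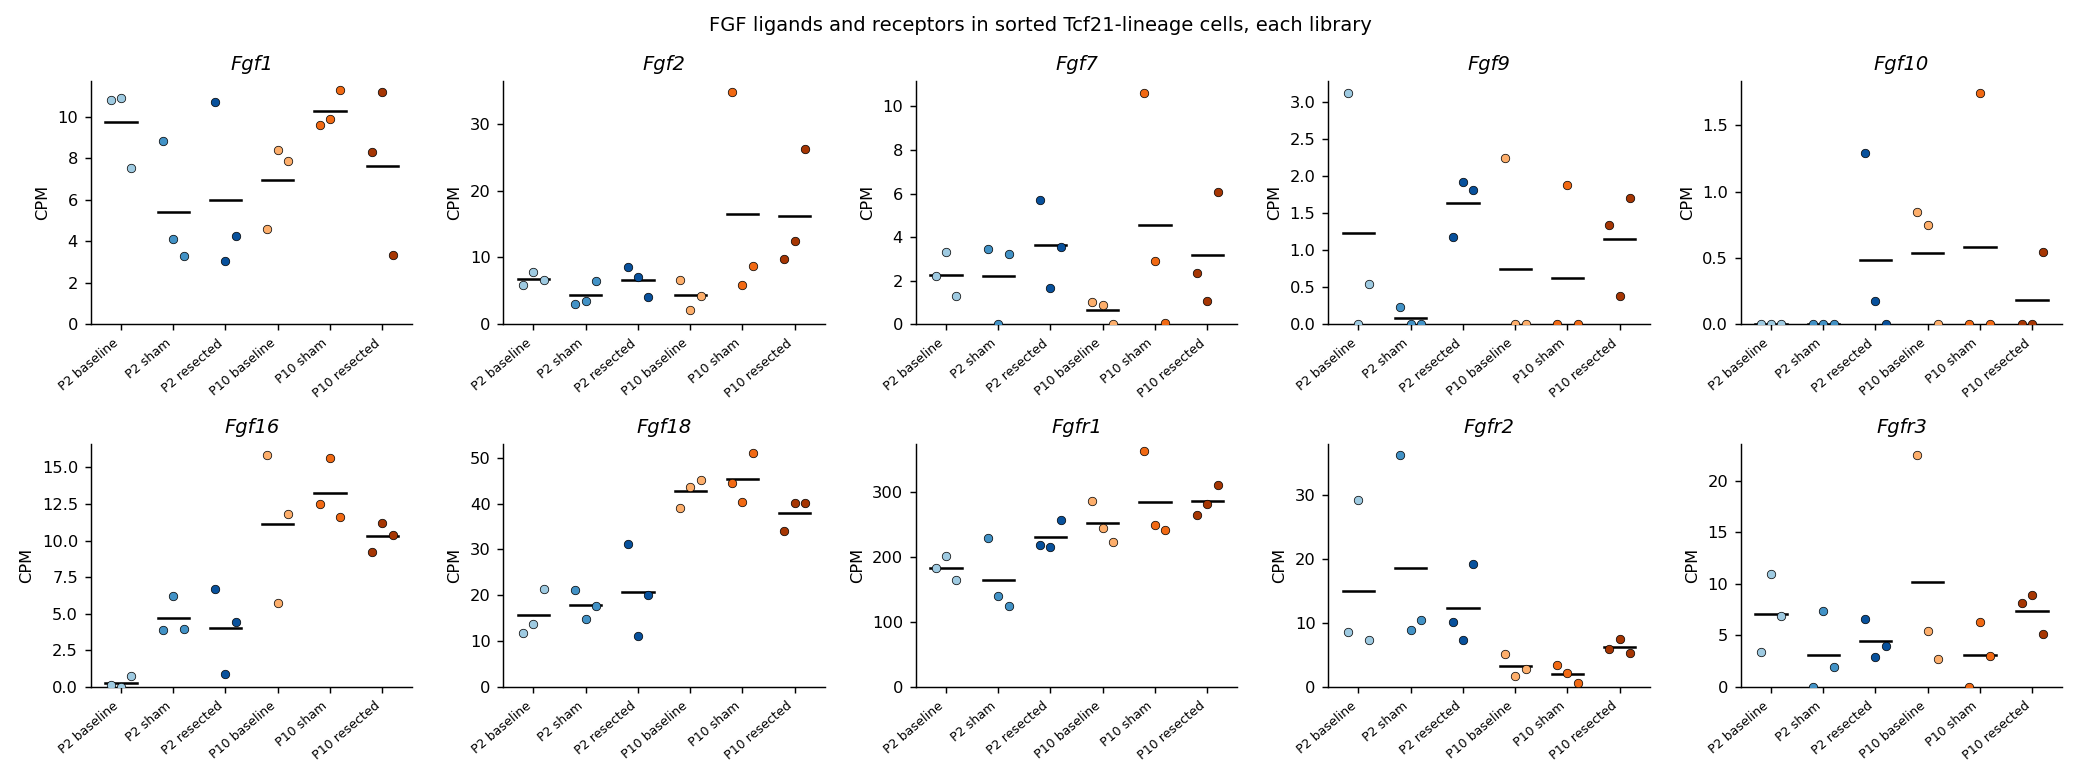
Reads scaled to library size (CPM, counts per 1000000 counted reads, y axes, linear and starting at 0) of the 10 FGF genes in each of the 18 libraries, by group, with a line at each group mean of 3 libraries. All 9 P10 libraries lie above all 9 P2 libraries for Fgf18, while Fgf9 and Fgf10 have many libraries at 0.

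The windows just upstream of Fgf18 and Fgfr2 are shown because these genes moved in opposite directions with age and because their upstream sequences differ in composition. RefSeq promoters of build GRCm38.p6 were matched for 7 of the 10 genes. Each run is the 250 bases before the annotated start, read 5′ to 3′ on the strand of the gene, with every CpG dinucleotide in capitals. The window of Fgf18 is chr11:33147401-33147650 and that of Fgfr2 is chr7:130266809-130267058, both on the minus strand. The Fgfr2 window follows the RefSeq start at 130266808, which lies 545 bases before the farthest start of 26 of the 27 transcripts in GENCODE. The remaining transcript starts at 133123350, and its upstream sequence is not shown.
Fgf18: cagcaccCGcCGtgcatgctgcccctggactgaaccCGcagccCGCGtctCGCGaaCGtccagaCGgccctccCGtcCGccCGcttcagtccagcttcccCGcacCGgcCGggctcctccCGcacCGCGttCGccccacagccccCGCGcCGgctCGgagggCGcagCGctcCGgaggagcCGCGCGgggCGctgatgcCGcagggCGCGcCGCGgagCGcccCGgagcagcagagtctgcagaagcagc
Fgfr2: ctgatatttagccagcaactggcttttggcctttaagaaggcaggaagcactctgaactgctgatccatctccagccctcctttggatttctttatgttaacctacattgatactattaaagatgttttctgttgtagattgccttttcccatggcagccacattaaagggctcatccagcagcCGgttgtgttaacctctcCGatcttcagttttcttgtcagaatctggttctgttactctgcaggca
The Fgf18 window was 77.2% G or C with 37 CpG dinucleotides, and the Fgfr2 window 44.0% with 2. Over the 32851 upstream windows of the reference table the medians were 52.4% and 6. A search of both strands for the TATA box motif (TATAAA), the CCAAT box, the Sp1 motif (GGGCGG), the core of Ets factor motifs (CCGGAA), the AP-1 motif (TGAGTCA), the cyclic AMP response element (TGACGTCA) and the E-box (CACGTG), none of which lies within another, found 1 match in the Fgf18 window, GGGCGG read on the opposite strand 174 bases before the start. GGGCGG occurred in 32.7% of all windows. None of these motifs occurred in the Fgfr2 window, and a match or its absence is a description of the sequence and does not show binding.

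Fgf18, a ligand of the FGF8 subfamily that prefers the IIIc receptors and is best known from bone, cartilage and lung development, was the ligand with most reads per length in every group. It lies on chromosome 11 (GRCm38, 33117430 to 33147400, minus strand), and no annotated exon of another gene overlaps its exons. In the P2 baseline libraries it had 11.6, 13.8 and 21.3 CPM. The P2 sham libraries had 21.1, 14.8 and 17.6 CPM, and the P2 resected libraries 31.1, 11.0 and 20.0 CPM. At P10 the baseline libraries had 39.1, 43.7 and 45.2 CPM, the sham libraries 44.5, 40.4 and 51.1 CPM, and the resected libraries 33.9, 40.1 and 40.1 CPM. The lowest P10 library lay above the highest P2 library, so the 9 and the 9 did not overlap, as was the case for 1.15% of all genes tested in this direction. Fgf18 was 2.34-fold higher in the P10 window, with a log2 fold change of 1.23 (SE 0.19, adjusted p = 0.000292).

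Within single conditions, the Fgf18 difference with age was 1.45 on the log2 scale at baseline (SE 0.33, adjusted p = 0.0184), 1.34 after sham surgery (SE 0.33, adjusted p = 0.0335) and 0.88 after resection (SE 0.33, adjusted p = 0.356). The P10 libraries were above the P2 libraries without overlap in each of the 3 conditions, as were those of 10.3%, 9.07% and 10.6% of all genes tested in that order. Of the 10 genes, 2 passed the test at baseline, where 4.38% of all genes tested did, and 2 passed after sham surgery, where 3.18% did. Without P2 resected replicate 2 or 1, the resected difference of Fgf18 was 0.57 or 1.29, and with voom weights it was called (1.11, adjusted p = 0.0163). After resection 0 of the 10 passed, where 0.86% of all genes did. DESeq2 called 3 of the 10 in the baseline, 4 in the sham and 0 in the resected condition, where 10%, 7.66% and 3.62% of its genes passed. Whether Fgf18 passed in a single condition depended on which library was left out, while its log2 difference stayed between 1.28 and 1.74 at baseline and between 1.23 and 1.48 after sham surgery. At baseline the adjusted p was 0.107 or 0.0865 without P2 baseline replicate 1 or 2, and 0.0677 or 0.0614 without P10 baseline replicate 2 or 3. After sham surgery it was 0.104 and 0.0972 without P2 sham replicate 2 and 3, and 0.0772, 0.0592 and 0.108 without P10 sham replicate 1, 2 and 3.

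Fgf16, a ligand of the FGF9 subfamily that is known in the heart for its part in embryonic growth and in postnatal muscle, was almost unread at P2 baseline and present in every later group. It lies on chromosome X (105764279 to 105774939, plus strand). The P2 baseline libraries had 0.0921, 0 and 0.731 CPM, from 14 counts in all. The P2 sham libraries had 3.85, 6.18 and 3.98 CPM and the P2 resected libraries 6.69, 0.897 and 4.46 CPM. In the P10 window the baseline libraries had 15.8, 5.73 and 11.8 CPM, the sham libraries 12.5, 15.7 and 11.6 CPM, and the resected libraries 9.25, 11.2 and 10.4 CPM. Every P2 baseline library was below every other library, and the P10 sham and P10 resected libraries were above all P2 libraries. The lowest P10 baseline library overlapped the P2 window. How many of all genes split between groups in these ways was not counted.

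The difference between the windows was 2.75 on the log2 scale for Fgf16 (SE 0.50, adjusted p = 0.00108), which is 6.72-fold. At baseline it was 5.38 (SE 0.98, adjusted p = 0.00461), with no overlap. Its size rested on the few P2 baseline counts, since the log2 difference was 7.71 without P2 baseline replicate 3 and 4.77 without replicate 2, and the call held in both (adjusted p = 0.00122 and 0.0145). Without P2 baseline replicate 3 the difference between the windows was 3.52. In the sham and the resected condition too, every P10 library was above every P2 library, by 1.50 (SE 0.80, adjusted p = 0.372) and 1.36 (SE 0.80, adjusted p = 0.732), and neither passed the test. Such a separation in this direction was found for 10.3%, 9.07% and 10.6% of all genes at baseline, after sham and after resection. Without P2 resected replicate 2 the resected difference was 0.88, and voom weights called it (2.01, adjusted p = 0.0343). P2 sham also exceeded P2 baseline by 4.13 (SE 0.94, edgeR unadjusted p = 0.000388, adjusted p = 0.26) without overlap, like 4.48% of all genes in this direction. With a library left out this difference ranged from 3.52 to 6.46. The comparison of P2 sham with P2 baseline gave no call for any of the 10 genes in edgeR, where 0% of all genes passed and 7.60% had an unadjusted p under 0.05. DESeq2 called Fgf16 there (adjusted p = 7.2e-05), among 1.05% of its genes. P2 sham and P2 baseline differ in surgery and in 3 days of age, and these cannot be told apart.

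The other 5 ligands were not called by edgeR in any comparison. Without the filter on low counts, however, it called Fgf10 between the windows (adjusted p = 0.0396). Fgf2, the classical heparin-binding mitogen of fibroblasts, had 5.80, 7.77 and 6.64 CPM at P2 baseline, 3.06, 3.41 and 6.53 CPM after P2 sham, and 8.62, 7.01 and 4.13 CPM after P2 resection. At P10 it had 6.61, 2.09 and 4.24 CPM at baseline, 34.8, 5.82 and 8.72 CPM after sham, and 9.74, 12.5 and 26.3 CPM after resection. The highest values, 34.8 and 26.3 CPM, were single libraries of both P10 surgery groups. All 3 P10 resected libraries were above the P2 resected libraries, like those of 10.6% of all genes. Fgf2 differed between the windows by 0.86 on the log2 scale (SE 0.36, adjusted p = 0.129), by 0.47 without P10 sham replicate 1, and by 0.22 with voom weights, which give less weight to variable libraries. After sham surgery Fgf2 differed with age by 1.93 (SE 0.65, adjusted p = 0.13), and DESeq2 called this difference (adjusted p = 0.0329). It was 0.75 without P10 sham replicate 1 and 0.83 with voom weights. P10 sham against P10 baseline gave 1.93 (SE 0.65, edgeR unadjusted p = 0.00819, adjusted p = 0.576), and 0.76 without P10 sham replicate 1. In the comparison of P10 sham with P10 baseline 0 of the 10 genes passed, where 0.00618% of all genes did. The exons of Fgf2 share 9.44% of their bases with Nudt6 on the other strand. Reads there could not be assigned by strand, because counting ignored it, and were by default left out.

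Fgf1, which binds all FGF receptors, ranged from 3.03 to 10.9 CPM in the P2 libraries and from 3.34 to 11.3 CPM in the P10 libraries. Its difference between the windows was 0.26 on the log2 scale (SE 0.32, adjusted p = 0.654), with a 95% interval from -0.41 to 0.93. Fgf7, also called keratinocyte growth factor, ranged from 0 to 5.69 CPM at P2 and from 0 to 10.6 CPM at P10 (log2 difference -0.32, SE 0.83, adjusted p = 0.858). Both ranges overlapped between the windows. In single conditions, Fgf7 was lower without overlap at P10 baseline (0 to 1.03 CPM) than at P2 baseline (1.28 to 3.30 CPM), like 12.1% of all genes. The adjusted p was 0.575 in edgeR. Fgf1 was higher without overlap in P10 sham (9.59 to 11.3 CPM) than in P2 sham (3.26 to 8.82 CPM, edgeR adjusted p = 0.437) and P10 baseline (4.61 to 8.40 CPM, edgeR adjusted p = 0.953). Of all genes, 9.07% and 5.34% did not overlap in this direction in these 2 comparisons.

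Fgf9, a mitogen of the embryonic heart, had no count in 3 of the 9 P2 libraries and 4 of the 9 P10 libraries and never exceeded 3.13 CPM. All 3 P2 resected libraries had Fgf9, at 1.17, 1.92 and 1.82 CPM, against 0.232, 0 and 0 CPM after P2 sham. The groups did not overlap, from 98 and 5 counts in all, and the difference did not pass the test (log2 4.25, SE 2.39, edgeR unadjusted p = 0.093, adjusted p = 1). With a library left out it ranged from 3.68 to 7.89. For a group without overlap in that direction, the share over all genes tested was 5.62%.

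Fgf10, the mesenchymal ligand of lung and limb budding, was at the limit of detection. None of the P2 baseline and P2 sham libraries had a count. Counts were found in 2 P2 resected libraries (1.29 and 0.171 CPM), 2 P10 baseline libraries (0.849 and 0.749 CPM), 1 P10 sham library (1.75 CPM) and 1 P10 resected library (0.544 CPM). A group without a count was set to a floor of 3 counts over the group. Against it, the pooled P10 baseline level was 12.3-fold that of P2 baseline, from 28 counts. The pooled P10 sham level was 9.29-fold that of P2 sham, from 27 counts in 1 library. For P2 resected over P2 sham the fold was 8.65, from 26 counts, 22 of them in replicate 1. Such floors allow for counting error in the group without counts only and not in the other group. None of these differences was called by edgeR (adjusted p = 0.284, 0.319 and 1).

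Fgfr1, the main FGF receptor of mesenchymal cells, carried nearly all receptor reads. It lies on chromosome 8 (25513654 to 25575718, plus strand). It had 184, 202 and 164 CPM at P2 baseline, 229, 140 and 125 CPM after P2 sham, and 219, 215 and 257 CPM after P2 resection. At P10 it had 286, 245 and 224 CPM at baseline, 363, 250 and 241 CPM after sham, and 264, 282 and 312 CPM after resection. In each condition the 3 P10 libraries were above the 3 P2 libraries, although a P2 sham library at 229 CPM and a P2 resected library at 257 CPM overlapped the P10 window. Of all genes, 10.3%, 9.07% and 10.6% did not overlap in this direction at baseline, after sham and after resection. The difference between the windows was 0.52 on the log2 scale (SE 0.13, adjusted p = 0.0146), or 1.43-fold. In single conditions it was 0.46 at baseline (adjusted p = 0.307), 0.79 after sham (adjusted p = 0.0797) and 0.31 after resection (adjusted p = 0.866), and none passed. DESeq2 and voom weights called the sham difference (adjusted p = 0.0302 and 0.0103), and it passed without P2 sham replicate 1 (1.10, adjusted p = 0.0121).

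Fgfr2, whose IIIb form answers FGF7 and FGF10 and whose IIIc form answers FGF18, FGF9 and FGF2 among others, went the other way. It lies on chromosome 7 (130162451 to 133123350, minus strand, the far end being that of 1 transcript), and 3.04% of its exon bases are shared with Ctbp2 on the same strand. At P2 it had 8.61, 29.2 and 7.25 CPM at baseline, 36.2, 8.95 and 10.5 CPM after sham, and 10.1, 7.39 and 19.3 CPM after resection. At P10 it had 5.10, 1.71 and 2.76 CPM at baseline, 3.35, 2.20 and 0.66 CPM after sham, and 5.87, 7.44 and 5.21 CPM after resection. P10 baseline and P10 sham lay below all P2 libraries, and 1 P10 resected library overlapped the P2 window. The share of all genes with such a split was not counted. The fall between the windows was 4.37-fold (log2 -2.13, SE 0.41, adjusted p = 0.00195).

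After sham surgery Fgfr2 was lower at P10 by 3.16 on the log2 scale (log2 -3.16, SE 0.75, adjusted p = 0.0261). That call was lost without P2 sham replicate 1, which held 36.2 CPM (-2.23, adjusted p = 0.114), and without P10 sham replicate 2 or 3 (adjusted p = 0.0856 and 0.103). Voom weights and a fit of only the 2 sham groups lost it too (adjusted p = 0.0615 and 0.153). At baseline the difference was -2.23 (SE 0.72, adjusted p = 0.0908) without overlap, like 12.1% of all genes in this direction. The sham groups did not overlap either, like 7.61% of all genes. DESeq2, the fit with no filter and voom weights called the baseline difference (adjusted p = 0.0225, 0.0225 and 0.0265), which was -1.31 without P2 baseline replicate 2. After resection the difference was -0.99 (SE 0.69, adjusted p = 0.838), with overlap, and -0.51 without P2 resected replicate 3. A difference between these 3 conditions is not shown by which of them passed. Only the sham and resected conditions were compared with each other, as the difference of the resection effects at both ages.

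Fgfr3, best known for restraining cartilage growth, scattered within groups. At P2 it had 3.36, 11.0 and 6.88 CPM at baseline, 0, 7.33 and 1.96 CPM after sham, and 6.57, 2.91 and 3.91 CPM after resection. At P10 it had 22.4, 5.40 and 2.66 CPM at baseline, 0, 6.27 and 2.97 CPM after sham, and 8.15, 8.90 and 5.13 CPM after resection. The difference between the windows was 0.41 on the log2 scale (SE 0.75, adjusted p = 0.782). Both libraries without a count, P2 sham replicate 1 and P10 sham replicate 1, were those with the most Fgfr1 and the most Fgfr2 in their groups. Of the exon bases of Fgfr3, 13.9% are shared with G630022F23Rik on the other strand.

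**Figure D2:**
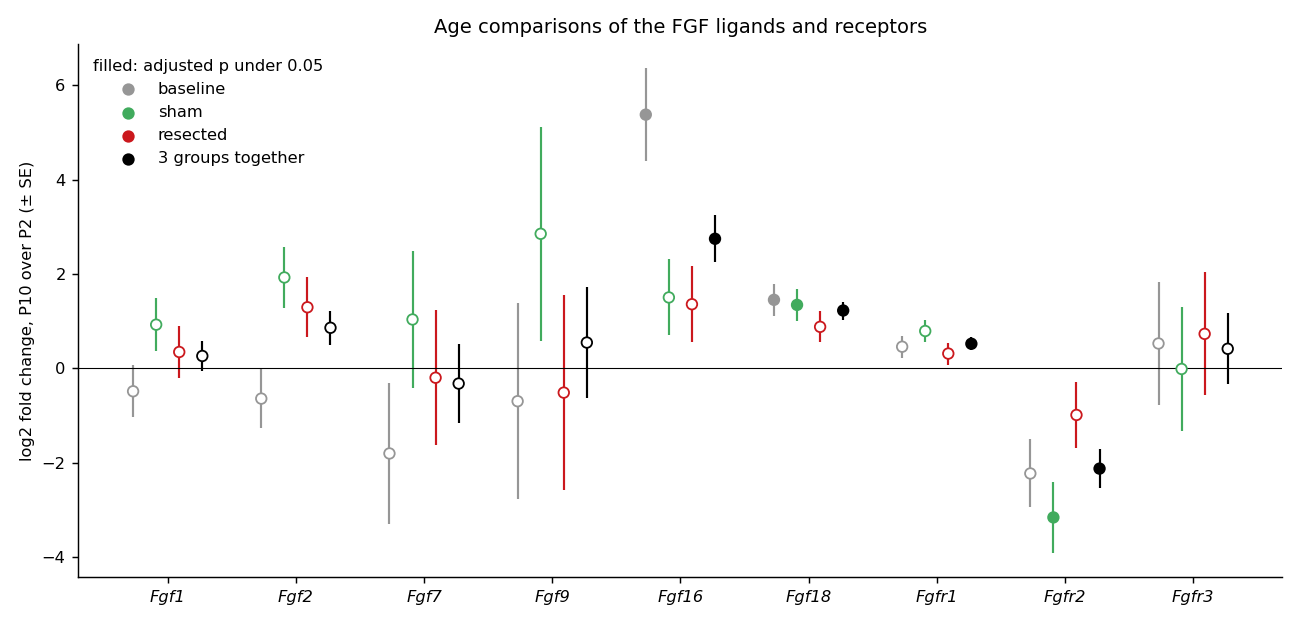
Log2 fold change of P10 over P2 (y axis) with its standard error for 9 FGF genes, at baseline, after sham, after resection and for the 3 groups together, with filled points where the adjusted p was under 0.05. Fgf18 lies above 0 and Fgfr2 below 0 in all 4 comparisons, and Fgf10 is left out because its fitted fold rests on groups without counts.

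Divided by exon length, the levels give an order of the genes. This order rests on the length used, all bases in any annotated exon of the gene, bases shared with other genes included. Among the 7 ligands, Fgf18 averaged 13.1 CPM per kb of exon at P2 baseline (SD 4.28, n = 3), 15.0 after P2 sham (SD 2.65, n = 3) and 17.4 after P2 resection (SD 8.46, n = 3). At P10 it averaged 35.9 (SD 2.69, n = 3), 38.2 (SD 4.55, n = 3) and 32.1 CPM per kb (SD 2.99, n = 3) in the same order. Its share of the summed ligand level was 73.1% to 79.8% as a group mean in all 6 groups and 67.9% to 86.5% over single libraries.

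The next ligand changed. At P2 baseline the second ligand per length was Fgf1 at 1.79 CPM per kb (SD 0.35, n = 3), and Fgf16 was 0.83% of the ligand total. In the other 5 groups the second ligand was Fgf16, at 9.29% to 15.6% of the total as group means. In the P2 resected group its share in single libraries overlapped that of Fgf2, and in replicate 2 both Fgf2 and Fgf1 were above it. The rank of Fgf16 rests on the division by exon length, which is 1645 bases for Fgf16 and 6782 for Fgf2. Before that division, Fgf2 was above Fgf16 in all 3 P10 resected libraries and in P2 resected replicates 1 and 2. The same held for P2 sham replicate 3 and P10 sham replicate 1, and Fgf16 was above Fgf2 in the other libraries of these 5 groups. Fgf16 averaged 2.84 CPM per kb after P2 sham (SD 0.80, n = 3) and 8.06 after P10 sham (SD 1.28, n = 3). The levels of Fgf1 and Fgf2 behind it overlapped in these 5 groups, and the higher group mean of Fgf2 in P10 sham and P10 resected rested on 1 library of each, at 5.13 and 3.87 CPM per kb. After P2 resection Fgf1, Fgf2 and Fgf7, at 1.10, 0.97 and 1.12 CPM per kb, did not differ beyond their spread. Fgf9 and Fgf10 averaged at most 0.35 and 0.13 CPM per kb in any group.

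Among the receptors, Fgfr1 made up 88.6% to 97.7% of the summed per-length level in group means. Fgfr2 made up 6.47%, 8.62% and 4.59% in the P2 baseline, sham and resected groups and 1.10%, 0.65% and 1.96% in the P10 groups. Fgfr2 ranked above Fgfr3 in each P2 group and below it in each P10 group, but the per-length levels of Fgfr2 and Fgfr3 in single libraries overlapped in each of the 6 groups.

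**Figure D3:**
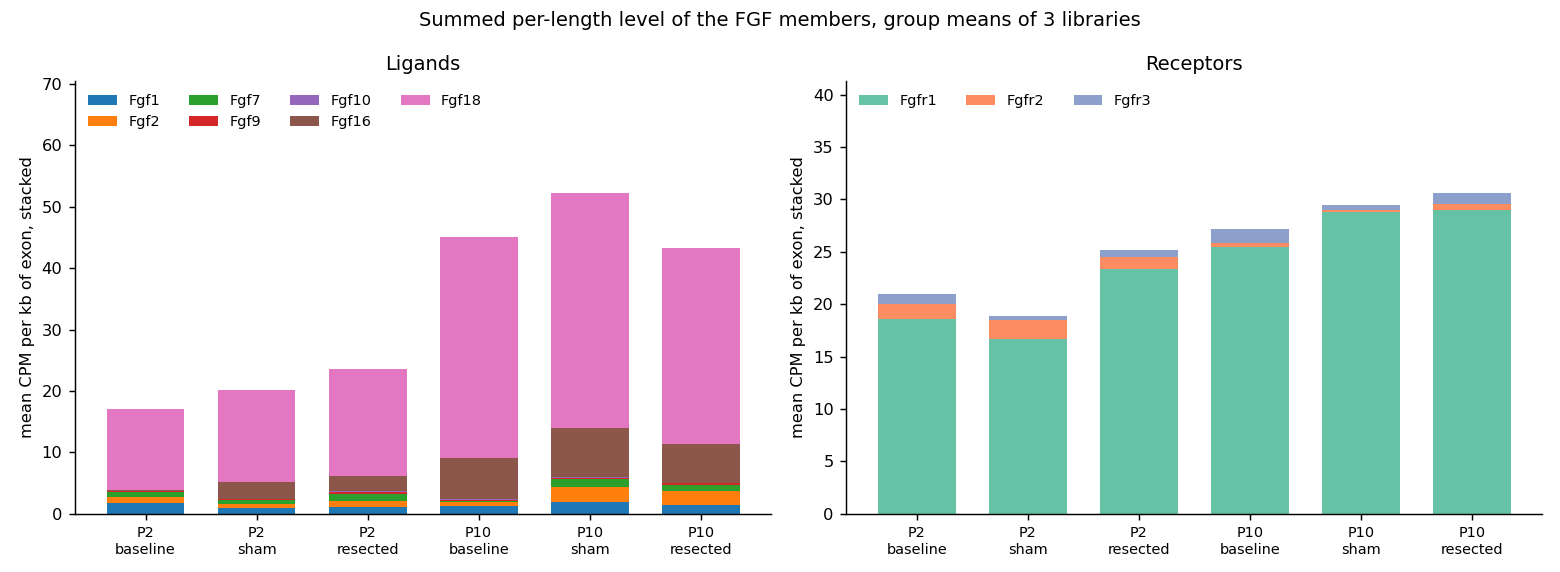
Stacked group means (3 libraries each) of CPM per kb of exon for the 7 ligands on the left and the 3 receptors on the right, with axes from 0. Fgf18 fills most of each ligand bar and Fgfr1 most of each receptor bar, and the Fgf16 part is visible from P2 sham on.

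The question of injury was asked by comparing resected with sham hearts at each age. None of the 10 genes passed at P2 or at P10, where 0% of all genes tested passed either comparison in edgeR. At P2, 4.51% of all genes had an unadjusted p under 0.05 and 0 of the 10 did, and at P10 4.09% of all genes and 1 of the 10 did. DESeq2 called 0.0859% of its genes at P2 and 0.251% at P10, and none of the 10. Fgfr2 was the gene with the low unadjusted p at P10. It had 5.21 to 7.44 CPM in the 3 resected libraries and 0.66 to 3.35 CPM in the 3 sham libraries, without overlap (log2 1.58, SE 0.71, edgeR unadjusted p = 0.0407, adjusted p = 1), like 5.63% of all genes. Fgf18 and Fgf16 were lower without overlap in the P10 resected libraries, by values within their error (log2 -0.25, SE 0.33, and -0.37, SE 0.79), like 3.04% of all genes. For the P2 surgery the Fgfr2 difference was -0.60 (SE 0.69), and 0.34 without P2 sham replicate 1.

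The difference between the resection effects at P10 and P2 was also tested. None of the 10 genes passed, where 0% of all genes did, and 1 of the 10 had an unadjusted p under 0.05 beside 2.88% of all genes. That was again Fgfr2 (log2 2.17, SE 0.99, edgeR unadjusted p = 0.0414, adjusted p = 1), and its value ranged from 1.24 to 2.71 with a library left out. For Fgf18, the 95% interval of the resection effect reached from -0.48 to 0.90 on the log2 scale at P2 and from -0.94 to 0.43 at P10. For Fgfr1 it reached from -0.0045 to 0.98 at P2 and from -0.48 to 0.50 at P10. For Fgf16 it reached from -1.89 to 1.45 and from -2.03 to 1.29. Changes within these bounds after injury could not be resolved here, and absence of a call does not show that these genes stayed the same.

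**Figure D4:**
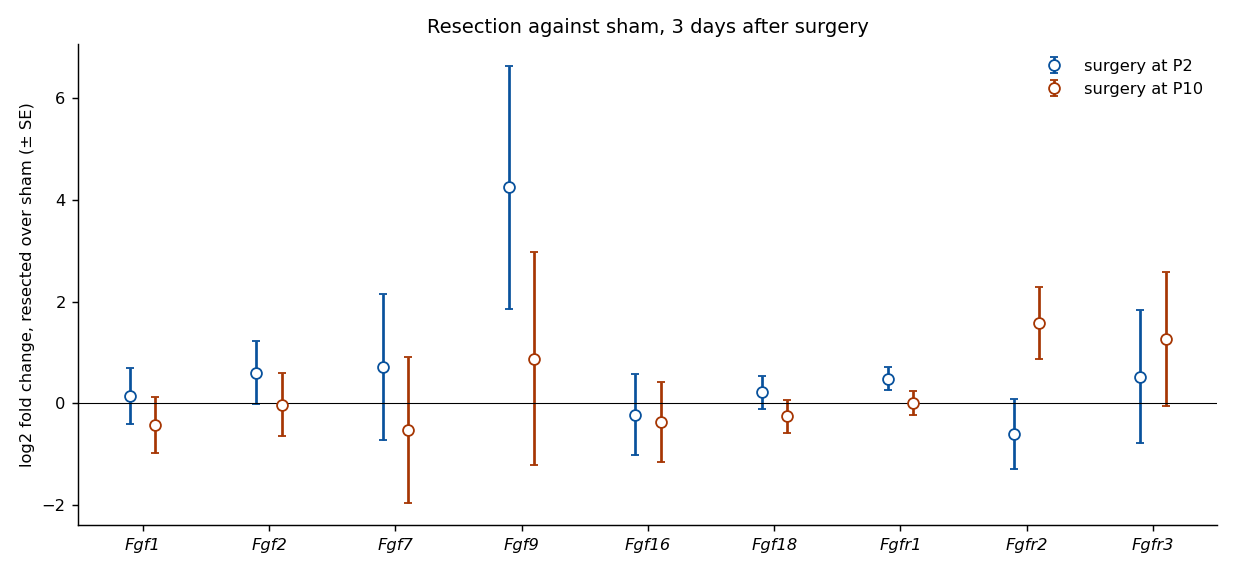
Log2 fold change of resected over sham (y axis) with its standard error, 3 days after surgery at P2 and at P10, for 9 FGF genes (3 libraries per group, Fgf10 left out). No point passed the adjusted test, and the error bars of the weakly expressed Fgf7, Fgf9 and Fgfr3 are the widest.

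The rest of the pathway was read from 5 lists with 74 genes, of which 57 were tested and 8 had no count. Between the windows, 4 were higher and 3 lower at P10, beside 13.5% of all genes tested in either direction, with a median log2 fold change of -0.04 beside -0.06 over all genes. Without P10 baseline replicate 1, 14 of them passed. Among the other 15 ligands, 4 were tested and 1 passed. This was Fgf11, an FGF homologous factor that stays inside the cell and does not signal through the receptors. It had 0 to 2.11 CPM in the P2 libraries and 0.395 to 5.80 CPM in the P10 libraries (log2 2.61, SE 0.77, adjusted p = 0.032). The Fgf11 call was lost without P2 baseline replicate 3, P2 sham replicate 3, P2 resected replicate 2 or 3, P10 sham replicate 3 or P10 resected replicate 2, with adjusted p up to 0.0709, and its log2 difference was 3.26 without P2 baseline replicate 1. Of 9 other receptors and co-receptors, 5 were tested and 0 passed, among them Fgfr4, whose log2 difference was -0.25 (SE 1.41) and changed sign in 5 alternatives, and the decoy receptor Fgfrl1 (-0.13, SE 0.23).

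Of 16 genes that build or edit heparan sulphate, 14 were tested, 2 rose and 0 fell, beside 13.5% of all genes in either direction. These calls are those of edgeR, and DESeq2 and voom weights called more of the pathway genes between the windows. Hs3st1, a sulphotransferase that adds the rare 3-O-sulphate group, had 18.8 to 60.4 CPM in the P2 libraries and 64.2 to 165 CPM in the P10 libraries, without overlap (log2 1.69, SE 0.19, adjusted p = 1.31e-05). It was also higher at baseline (1.92, SE 0.33, adjusted p = 0.00328) and after sham surgery (1.74, SE 0.33, adjusted p = 0.00616). Sulf2, a secreted enzyme that takes 6-O-sulphate off heparan sulphate chains, had 175 to 333 CPM at P2 and 332 to 546 CPM at P10, which overlapped only at the margin (log2 0.64, SE 0.14, adjusted p = 0.00365). Its relative Sulf1 gave -0.33 (SE 0.17, adjusted p = 0.229). Of 19 signal transducers from Frs2 to the MAP kinases, all were tested and 0 passed.

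Of 15 feedback and target genes, all were tested, 1 rose, 3 fell and 11 did not pass, beside 7.11% of all genes higher and 6.39% lower. Spry1, an inhibitor of receptor tyrosine kinase signalling, rose from 572 CPM (SD 58.0, n = 9) to 881 CPM (SD 101, n = 9), and its lowest P10 library, at 722 CPM, was above its highest P2 library, at 676 CPM (log2 0.62, SE 0.10, adjusted p = 0.000582). Of the exon bases of Spry1, 24.4% are shared with Gm42922 on the other strand. Counting ignored strand, so reads there fell on both genes and were by default left out. Etv4, a transcription factor switched on by FGF signalling, fell 3.88-fold. It had 19.5, 30.3 and 23.8 CPM at P2 baseline, 17.5, 12.4 and 15.9 CPM after P2 sham, and 9.68, 24.0 and 19.3 CPM after P2 resection. The P10 libraries had 1.80 to 9.27 CPM, below every P2 library, as 1.36% of all genes were (log2 -1.96, SE 0.30, adjusted p = 0.00023). Spry1 and Etv4 thus moved in opposite directions with age.

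Dusp4 and Dusp6, phosphatases that switch off MAP kinases, were also lower. Dusp4 had 3.55 to 48.0 CPM at P2 and 1.01 to 10.3 CPM at P10 (log2 -1.84, SE 0.47, adjusted p = 0.0133). Dusp6 had 99.9 to 246 CPM at P2 and 92.8 to 142 CPM at P10 (log2 -0.52, SE 0.16, adjusted p = 0.0381). The Dusp6 call was lost when any 1 of 12 libraries was left out and held without P2 sham replicate 2, P2 resected replicate 1 or 3, P10 baseline replicate 1, P10 sham replicate 2 or P10 resected replicate 3. The adjusted p was largest, 0.0922, without P2 resected replicate 2. The 11 others, Spry2, Spry3, Spry4, Spred1, Spred2, Spred3, Dusp5, Il17rd, Etv1, Etv5 and Phlda1, gave adjusted p-values from 0.075 (Il17rd, log2 0.74) to 1. Il17rd did pass in 3 of 5 other settings, and in edgeR when either of 2 libraries was left out (lowest edgeR adjusted p = 0.0133). Etv1 and Etv5, relatives of Etv4, gave -0.18 (SE 0.20) and -0.16 (SE 0.16).

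In single conditions 3 of the 57 passed at baseline and 3 after sham surgery, near the 4.38% and 3.18% of all genes. At baseline Spry1 (0.75, SE 0.18, adjusted p = 0.0241) and Etv4 (-1.89, SE 0.51, adjusted p = 0.0442) passed with Hs3st1. Leaving out any baseline library other than P10 baseline replicate 1 left Hs3st1 as the only call, with adjusted p for Spry1 from 0.0705 to 0.118 and for Etv4 from 0.0695 to 0.189. Without P10 baseline replicate 1, Etv4 was lost too (adjusted p = 0.0741), and Hs3st1, Spry1, Ext2 and Ndst3 passed. After sham surgery Etv4 (-2.09, SE 0.52, adjusted p = 0.0345), Hs3st1 and Fgf11 passed, the last from 2 counts in P2 sham and 212 in P10 sham. The Fgf11 call was lost without any library except P10 sham replicate 2, with adjusted p up to 0.115. That of Etv4 was lost without P2 sham replicate 1 or 3 or P10 sham replicate 1 or 3, with adjusted p up to 0.141, and its log2 difference was -2.82 without P10 sham replicate 2. After resection 0 of the 57 passed, and Hs3st1 alone did without P2 resected replicate 1. Resection against sham gave no call among the 57 at either age. At P2 14 of the 15 feedback and target genes had a log2 difference above 0, with a median of 0.24, and at P10 11 of 15 did, with a median of 0.22, beside medians of 0 and 0.02 over all genes. These comparisons share the sham libraries with those of sham against baseline, where 12 of the 15 were below 0 at P2 (median -0.32) and 13 at P10 (median -0.42), with 0 called. Markers of other cells differed between resected and sham libraries without a call. All 10 macrophage markers were above 0 at both ages (medians 0.94 and 1.01), 8 and 7 of 9 endothelial markers were (0.74 and 1.47), 8 and 6 of 9 mural markers were (0.50 and 0.06), and all 8 epicardial and mesothelial markers tested were at P10 (3.71). At P2, 5 of these 8 were below 0 (-0.51). Of 12 cardiomyocyte markers, 10 were below 0 at P2 (-0.74) and 10 above 0 at P10 (0.38). Their part was not tested.

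**Figure D5:**
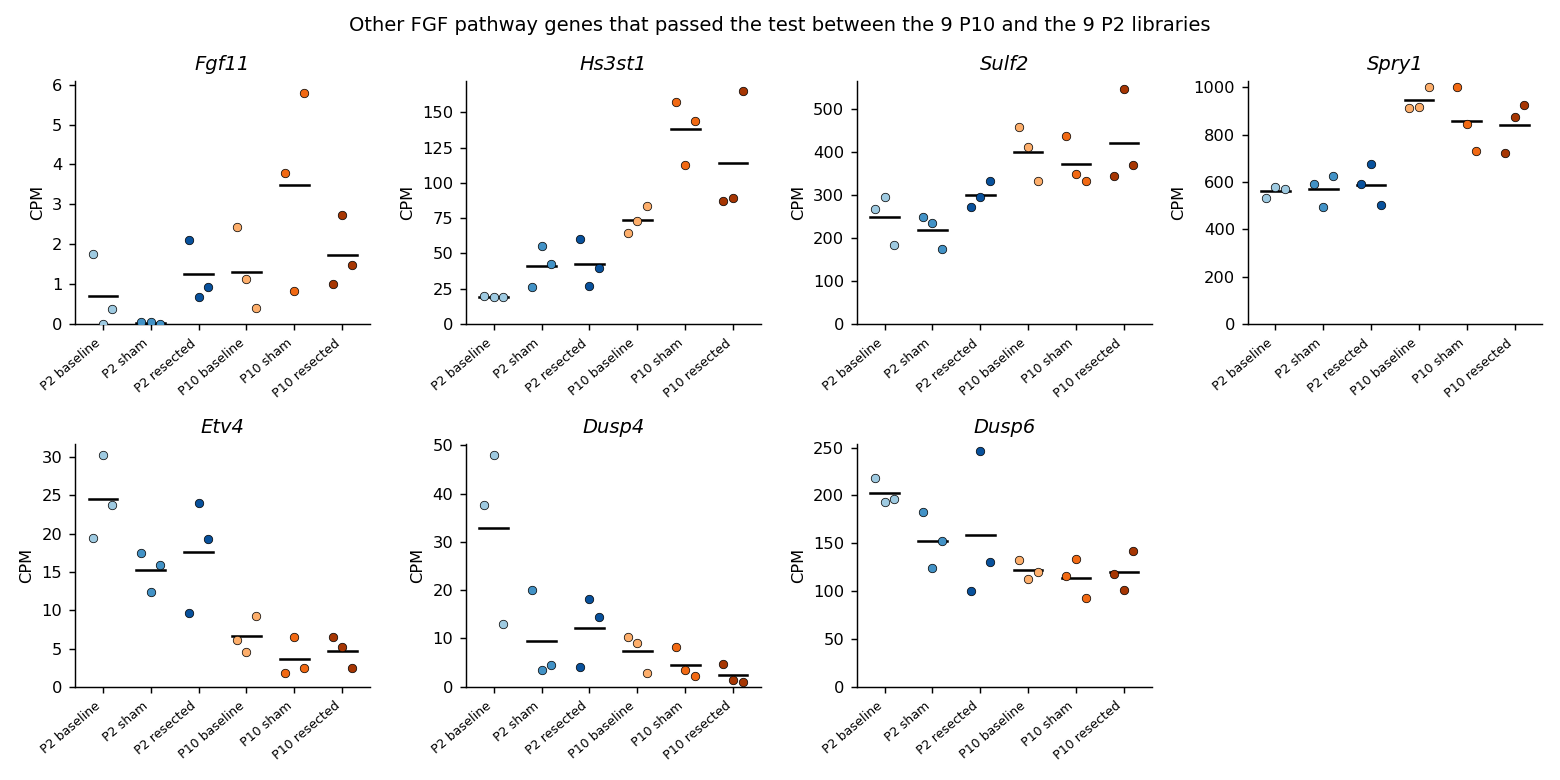
CPM (y axes, linear from 0) in each library of the 7 other FGF pathway genes that passed the test between the age windows, with group means as lines. Hs3st1 and Spry1 lie higher and Etv4 lower in all 9 P10 libraries than in all 9 P2 libraries.

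The labelled cell type was checked with marker lists. Tcf21 had 203 to 447 CPM and Pdgfra 256 to 878 CPM over the 18 libraries, and 8 fibroblast markers summed to 54058 to 116802 CPM. Of these 8, Col3a1, Dcn and Lum were higher and Postn was lower in the P10 window. Mural markers (9 genes) summed to 1167 to 2660 CPM at P2 and 1246 to 2305 CPM at P10, with Rgs5, Kcnj8 and Myh11 higher at P10. Macrophage markers (10 genes) summed to 5.29 to 441 CPM at P2 and 17.7 to 1076 CPM at P10, endothelial markers (9 genes, most of it Tek) to 175 to 463 and 256 to 481 CPM, and epicardial and mesothelial markers (9 genes, 8 of them tested) to at most 60.1 CPM, with 0 called in these 3 lists. The summed level of 12 cardiomyocyte markers was 326 to 1547 CPM at P2 and 166 to 837 CPM at P10, with 6 of the 12 lower at P10 (Tnnt2, Actc1, Nppa, Myl2, Pln and Myh7) and 0 higher. Over all genes, 7.11% were called higher and 6.39% lower between the windows. The part of these markers in the FGF values was not tested.

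For the 4 genes called between the windows, the genes with the most similar pattern were found by Pearson correlation of log2 CPM over the 18 libraries, among all genes tested outside the family. These values share the age difference and the libraries and are given as a description. Fgf18 was most like Ret, a receptor tyrosine kinase for GDNF-family ligands (r = 0.93, and 0.69 once group means were taken off), Ackr2, a scavenger receptor of chemokines (0.92 and 0.56), and Gm2a, the GM2 ganglioside activator (0.91 and 0.49). Fgf16 was most like Tnfaip2 (0.91 and 0.50), Pamr1 (0.91 and 0.68) and Ctsk, the collagen-degrading protease cathepsin K (0.90 and 0.50).

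Fgfr1 was most like Bmp1, the procollagen C-proteinase (0.94 and 0.91), Pkd1, which encodes polycystin-1 (0.94 and 0.88), and Anpep, an aminopeptidase (0.93 and 0.89). With group means taken off, these values fell little. Fgfr2 was most like Pola1, the catalytic subunit of DNA polymerase alpha (0.92 and 0.75), Knl1, a kinetochore scaffold (0.89 and 0.67), and Dbf4, the regulatory partner of the kinase Cdc7 (0.89 and 0.68).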

How the data were processed

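Bulk RNA was measured in 18 libraries of sorted Tcf21-lineage cells, grouped by the sample labels. The deposited values are whole-number counts per gene symbol that were not normalized. The authors made them by trimming reads with fastp 0.20.0, mapping them with STAR 2.7.0f to GRCm38.p6 with GENCODE annotation, and counting exon reads with featureCounts (Subread 1.6.4) without strand. By its default, reads on several genes or places are left out. No column of another sample was in the table.

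Counts were tested with edgeR 4.0.16 (R 4.3.3): filterByExpr at defaults (minimum count 10, minimum total 15) kept 16170 of 55453 symbols, 28906 of which had a count. Libraries were scaled by TMM, 1 quasi-likelihood model, in which each of the 6 groups had its own mean, took in the 18 libraries, and p-values were Benjamini-Hochberg adjusted over all genes tested, with 0.05 as the threshold. The study's own test was DESeq2, which (1.42.0), with limma 3.58.1 voom weights, RLE scaling, no filter, only the groups compared, a replicate block and leaving out each library, served as alternative. Standard errors were derived from the log2 fold change and its F statistic, and 95% intervals use the t quantile of the test. CPM are counts per 1000000 of the TMM-scaled library total, and correlations used log2 CPM with a prior count of 2. The fits were tested on simulated data. Exon lengths, overlaps and positions came from the GENCODE annotation of GRCm38 one release before that of the authors, upstream sequences from RefSeq.

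Library totals were 10462737 to 22980554, so 3 counts set the floor for a gene without counts. No pair of replicates agreed within sampling noise (chi-square per gene 34.2 to 295 over 18 pairs). The members and lists were chosen with earlier results of these data known. All members, the whole feedback list, pathway genes called in any comparison and the 3 most similar genes of each member called between the windows are named. Genes named besides (Sulf1, Fgfr4, Fgfrl1, and Ext2 and Ndst3) were chosen after their values were seen.

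The labels number replicates 1 to 3 in each group. They do not say that these numbers mark pairs. Deviations from group means of same-numbered libraries correlated at r over 0.1 in every pair for P10 resected with P2 resected (0.121 to 0.189) and P10 sham with P10 baseline (0.107 to 0.328). A further pair of groups, P2 sham and P10 baseline (0.146 to 0.378), forms no comparison of its own. Its groups differ in age and in surgery, so such an r does not show pairing. In the 2 comparisons named first, the replicate block left the counts of FGF members and pathway genes called at 0.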

Additional observations from a re-analysis of the deposited data

How the results depend on the processing

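Of 60 single-gene differences recomputed, the 21 called ones kept their direction under every alternative run and 8 uncalled ones did not. The 4 members called between the windows (Fgf18, Fgf16, Fgfr1, Fgfr2) were called under DESeq2, RLE scaling, no filter, voom weights, the replicate block and each library left out. With no filter Fgf10 was called as well, from 26 counts in all P2 libraries and 62 in all P10 libraries. The single-condition calls were less stable. At baseline 2 members were called, 0 with only the groups compared and 1 to 2 with a library left out. After sham surgery 2 were called, 4 by DESeq2 (with Fgf2 and Fgfr1), 0 with only the groups compared, 2 with voom weights (Fgf18 and Fgfr1), 3 with the replicate block (Fgfr1 besides), and 0 to 2 with a library left out. After resection 0 were called, and 2 with voom weights (Fgf18 and Fgf16). For P2 sham against P2 baseline, 0 were called, and 1 by DESeq2 and 1 with no filter, Fgf16 both times. With only the groups compared, 6 libraries set the spread.

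Of the other pathway genes, 7 were called between the windows, 12 by DESeq2, 21 with voom weights, 11 with the replicate block and 5 to 14 with a library left out. At baseline 3 were called, 15 with voom weights, 1 with only the groups compared and 1 to 4 with a library left out. After sham surgery 3 were called, 6 by DESeq2, 6 with no filter, 0 with only the groups compared and 1 to 3 with a library left out. After resection 0 were called, 2 by DESeq2, 1 with RLE scaling, 3 with no filter, 3 with voom weights and 0 to 1 with a library left out. For P10 sham against P10 baseline 0 were called, and 1 with no filter (Hs6st2). Over all genes, edgeR and DESeq2 called 709 and 1653 at baseline, 515 and 1260 after sham surgery, and 139 and 498 after resection. The cause of these differences was not tested.

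Among the 8, voom weights gave -0.0029 for Fgf18 after P2 resection, -0.87 for Fgf9 and 0.55 for Fgfr4 between the windows, the replicate block 0.52 for Fgfr4, and only the groups compared -0.0022 for Fgfr1 after P10 resection. With a library left out, the resection effect ranged from -0.80 to 0.25 for Fgf16, from -0.20 to 0.52 for Fgf18 and from -1.08 to 0.34 for Fgfr2 at P2, and from -0.0985 to 0.22 for Fgfr1 at P10. The difference between the windows ranged from -1.72 to 1.76 for Fgf9, -0.0288 to 0.99 for Fgfr3, -2.43 to 1.44 for Fgfr4 and -0.236 to 0.0074 for Fgfrl1.

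In every comparison, the labels give the libraries only a shared number. The median r of same-numbered libraries was 0.05 over 45 pairs and -0.02 for different numbers, and 10 of 18 libraries correlated best with one of their own number. Outside the count of 11, the replicate block moved no count of calls by over 1.5 times. RLE in place of TMM moved the group mean of a member by at most 3.09%. Fgf9 and Fgf10 had no count in 7 and 12 of the 18 libraries, so their differences rest on few counts.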
